A study of Mus musculus with 9 samples.

Results

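The 8 genes described here (Sema3c, Glp1r, Adgrl3, Clec1a, Kit, Cd93, Itga1 and Ptprb) are markers of general capillary cells, a type of lung capillary endothelial cell. They were taken as a list of symbols and matched to the gene identifiers of the deposited count table, where all 8 were found among 56748 identifiers. The study sequenced RNA of endothelial cells from the lungs of C57BL/6 mice 6 weeks of age in 9 libraries, with 3 for each of the genotypes labelled WT, DNMAML and Notch1f/f. The sort kept cells with CD31, an endothelial surface protein, and without CD45, a leukocyte protein, or DAPI, a dye that enters dead cells. The name DNMAML usually stands for a truncated Mastermind-like protein that acts as a dominant negative and keeps all Notch receptors from activating transcription. Notch1f/f is the usual notation of a Notch1 allele that a recombinase can delete. Labels and protocols do not name the recombinase, its driver, the age at which it acted or how many mice gave a library. All animals share strain and age, and no other treatment is named.

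The alveolar capillary bed holds general capillary cells and aerocytes. Aerocytes are large cells that lie against the air spaces and serve gas exchange. General capillary cells are smaller, respond to circulating signals, and serve as progenitors that divide and can form aerocytes after injury. Notch receptors on endothelial cells are activated by ligands on neighbouring cells. The freed receptor domain then acts in the nucleus with the DNA-binding protein RBPJ and a Mastermind-like protein, and this pathway guides arterial identity and vessel sprouting.

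The 8 genes encode a secreted ligand, receptors of several classes and a phosphatase. Sema3c encodes a secreted semaphorin that acts through neuropilins and plexins. Kit encodes the receptor tyrosine kinase for stem cell factor, and Glp1r the receptor for the gut hormone glucagon-like peptide. Adgrl3 encodes a latrophilin, an adhesion receptor that binds teneurins and FLRT proteins. Clec1a and Cd93 encode membrane proteins with C-type lectin-like domains, and CD93 binds the matrix protein multimerin encoded by Mmrn2. Itga1 encodes an integrin chain that pairs with the chain encoded by Itgb1 and binds collagens. Ptprb encodes the vascular endothelial protein tyrosine phosphatase, which dephosphorylates the angiopoietin receptor TEK and acts on the junction protein VE-cadherin.

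On genome build GRCm39, as the deposited table gives it, Sema3c (ENSMUSG00000028780) lies on the plus strand at chr5:17779279-17935266, Kit (ENSMUSG00000005672) on the plus strand at chr5:75735576-75817382, and Adgrl3 (ENSMUSG00000037605) on the plus strand at chr5:81167985-81972980. Glp1r (ENSMUSG00000024027) lies on the plus strand at chr17:31120791-31159765, and Clec1a (ENSMUSG00000033082) on the minus strand at chr6:129401735-129428963. Cd93 (ENSMUSG00000027435) lies on the minus strand at chr2:148278560-148285483. Itga1 (ENSMUSG00000042284) lies on the minus strand at chr13:115089632-115238500, and Ptprb (ENSMUSG00000020154) on the plus strand at chr10:116111428-116225440. Counts cover the joined exons of each gene, introns left out. Adgrl3 shares 1582 exon bases with the antisense gene Gm16054, which had at most 60 counts in a library, and Itga1 shares 685 exon bases with Gm49395 on the same strand. No strand option was recorded, so strand could not assign reads in the bases that Adgrl3 shares. Whether reads in the shared bases of Adgrl3 and Itga1 were counted or left out was not checked.

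Of the 8 genes, 5 had a promoter window in the RefSeq table of build GRCm38.p6, which runs from 250 bases before to 50 bases after a start. The windows were searched on both strands for the core of the RBPJ motif, TGGGAA, which reads TTCCCA on the other strand, and for an ETS motif, AGGAAG, which reads CTTCCT on the other strand, since RBPJ carries Notch signals and ETS factors are active in endothelium. These motifs share no full match. The RBPJ letters were in 0 of the 8 windows of Sema3c, Glp1r, Adgrl3, Kit and Itga1, against 25.6% of all 32851 windows. The ETS letters were in 4 of the 8 windows, against 35.4% of all windows. These were the windows of Kit and Itga1 and 1 window of Adgrl3. The windows of Kit overlap and hold the same match, so windows of a gene are not separate counts. A window of Kit and that of Itga1 are shown as examples with the ETS letters, in capitals, and that of Sema3c as an example with neither motif. Each reads 5′ to 3′ on the strand of its gene, which is plus at chr5:75574737-75575036 for Kit, minus at chr13:115101915-115102214 for Itga1 and plus at chr5:17574566-17574865 for Sema3c.
Kit: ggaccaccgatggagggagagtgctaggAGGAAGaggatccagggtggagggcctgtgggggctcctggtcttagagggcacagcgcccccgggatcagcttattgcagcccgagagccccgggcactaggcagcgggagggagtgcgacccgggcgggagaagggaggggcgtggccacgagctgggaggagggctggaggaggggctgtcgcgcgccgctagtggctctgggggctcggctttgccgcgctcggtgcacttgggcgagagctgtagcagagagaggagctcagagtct
Itga1: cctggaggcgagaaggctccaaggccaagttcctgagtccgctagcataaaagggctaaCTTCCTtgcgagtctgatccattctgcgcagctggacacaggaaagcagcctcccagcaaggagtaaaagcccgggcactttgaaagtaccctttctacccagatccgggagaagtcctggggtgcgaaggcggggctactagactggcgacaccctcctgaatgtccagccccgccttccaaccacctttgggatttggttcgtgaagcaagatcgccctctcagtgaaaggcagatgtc
Sema3c: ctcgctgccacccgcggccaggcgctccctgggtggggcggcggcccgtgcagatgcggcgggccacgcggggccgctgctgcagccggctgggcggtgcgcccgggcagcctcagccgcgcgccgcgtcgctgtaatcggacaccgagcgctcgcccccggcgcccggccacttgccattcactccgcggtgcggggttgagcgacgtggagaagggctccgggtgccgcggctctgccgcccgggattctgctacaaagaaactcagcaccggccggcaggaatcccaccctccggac
A match describes letters in a window and is not a binding site, and the absence of a match says nothing of binding elsewhere.

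The libraries held 15522100 to 27842496 counts each. Notch1 stood at 766 to 909 CPM in WT and 679 to 872 in DNMAML, and at 29.5 to 176 in Notch1f/f, lowest in Notch1f/f replicate 2. The DNMAML transgene was not checked here. CPM is the count relative to the library size scaled by TMM. Cdh5 and Pecam1, which define endothelium, reached 5366 to 6656 and 3408 to 4353 CPM, against 0.408 to 28.0 for Ptprc, the gene of CD45. Ddx3y, a gene of the Y chromosome, stood at 106.8 to 133 CPM in WT replicate 2, DNMAML replicates 1 and 3 and Notch1f/f replicate 1, and at 0.225 or less in the other 5. Notch1f/f replicate 2 stands apart. Of 9369 genes with a mean of at least 10 CPM it was the lowest library in 22.5%, against 5.26% to 16.5% in the others.

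All 8 markers were well expressed in every library, and their total ran from 12842 to 15074 CPM in WT, 10891 to 13874 in DNMAML and 10242 to 14491 in Notch1f/f. Those ranges overlap. Levels of different genes were set side by side as RPKM, which divides CPM by the exon length in kilobases. Over the 9 libraries together Cd93 had a mean of 421 RPKM, followed by Sema3c at 309, Ptprb at 292, Glp1r at 168, Clec1a at 122, Kit at 119.6, Itga1 at 65.8 and Adgrl3 at 13.8. That order pools genotypes between which Ptprb differed. In WT alone Ptprb had a mean of 383 ± 50.6 RPKM and Cd93 of 380 ± 29.98 (SD, n = 3), which were not separated, and in WT replicate 2 Ptprb stood at 441 against 366 for Cd93. In Notch1f/f the means were 235 ± 64.2 for Ptprb and 478 ± 31.2 for Cd93. Cd93 stood above Sema3c in 9 of 9 libraries, and so did Ptprb above Glp1r, Glp1r above Clec1a, Kit above Itga1 and Itga1 above Adgrl3. Sema3c stood above Ptprb in 6 of 9 libraries and Clec1a above Kit in 5 of 9, so those neighbours were not separated beyond their spread. The mean of Cd93 was 30.6 times that of Adgrl3.

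**Figure D1:**
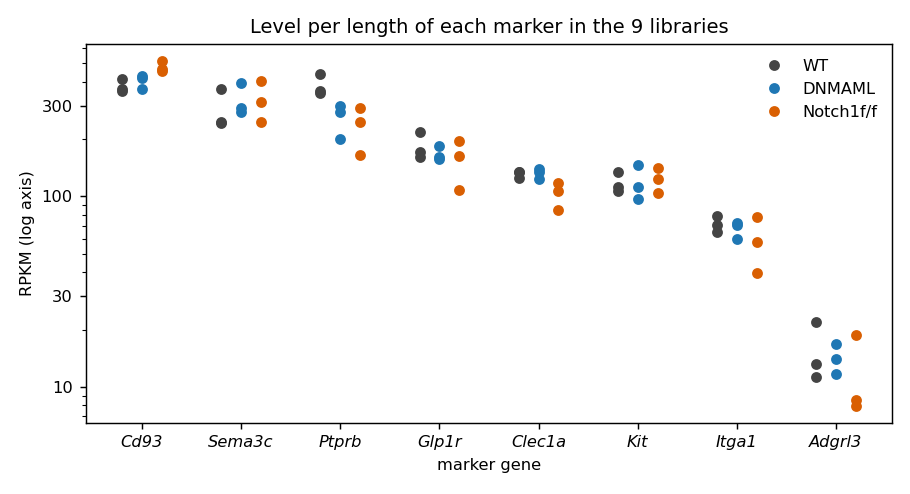
Level per length (RPKM, log axis) of each of the 8 markers, with a point for each of the 9 libraries coloured by genotype. Genes are ordered by their mean over all 9 libraries, from 421 RPKM for Cd93 to 13.8 for Adgrl3. In WT the points of Cd93 and Ptprb overlap, while over all libraries those of Sema3c and Ptprb do, as do those of Clec1a and Kit.

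None of the 8 markers passed the test in any comparison, and those whose genotypes did not overlap in at least 1 comparison were Ptprb, Clec1a and Cd93. Ptprb was lower in each DNMAML and each Notch1f/f library than in any WT library. In Notch1f/f, Clec1a also lay below and Cd93 above every WT and DNMAML library. The other 5 markers (Sema3c, Kit, Glp1r, Adgrl3 and Itga1) overlapped between the genotypes in every comparison. The test was edgeR's quasi-likelihood test with Benjamini-Hochberg adjustment over the 19486 genes kept, and a gene passed at an adjusted p below 0.05. Since libraries of a genotype are not stated to be separate mice, p-values measure the spread between these libraries, which may be technical. In sorted bulk cells, fewer cells of a type and less RNA per cell cannot be told apart.

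**Figure D2:**
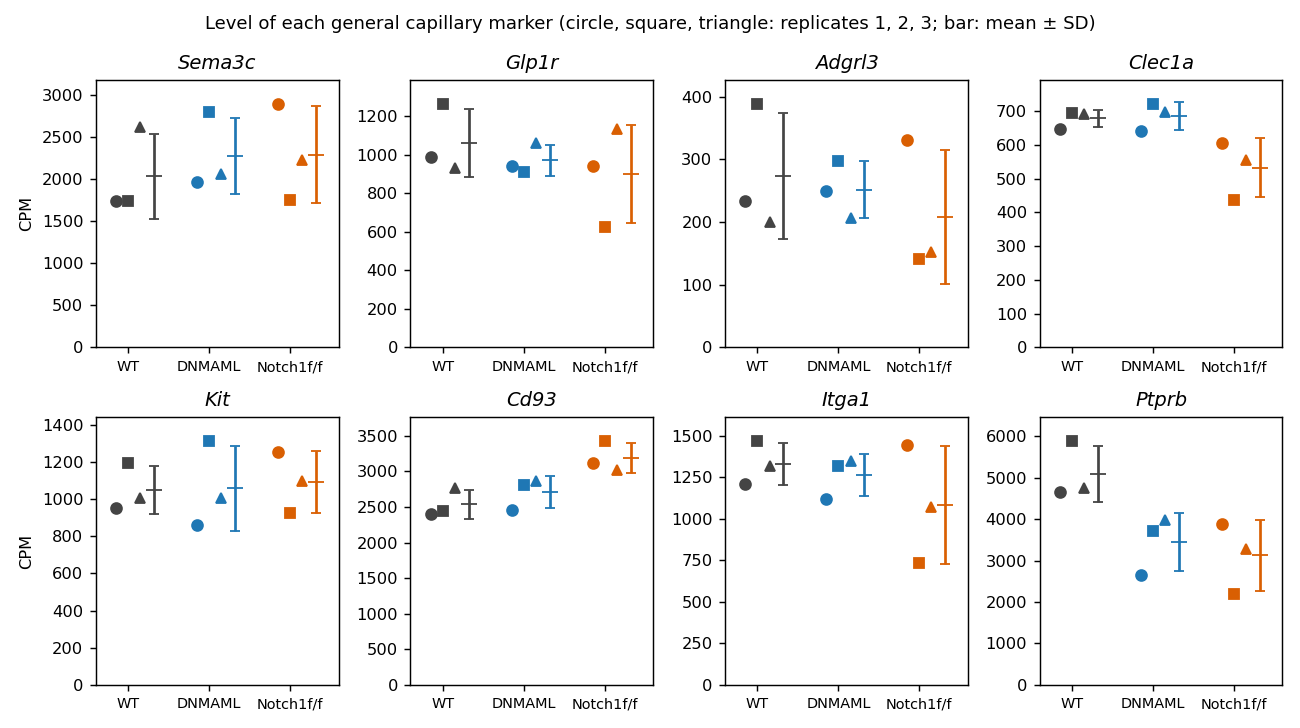
Level (CPM, linear axis from 0) of each of the 8 markers by genotype, with a circle, square and triangle for replicates 1, 2 and 3 and a bar at the mean ± SD of 3 libraries. Ptprb is lower in both mutant genotypes than in WT, and in Notch1f/f Clec1a is lower and Cd93 higher than in WT.

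Sema3c, the secreted semaphorin, stood at 1746, 1744 and 2625 CPM in WT replicates 1 to 3, at 1971, 2803 and 2068 in DNMAML and at 2898, 1752 and 2237 in Notch1f/f. The groups overlapped, and each genotype had a library well above its other ones. The log2 difference from WT was 0.16 (SE 0.23, 95% interval -0.33 to 0.66) in DNMAML and 0.17 (interval -0.32 to 0.67) in Notch1f/f. Intervals are not adjusted for the number of genes. The semaphorin's receptors did not pass either. Its neuropilin Nrp1 stood at 812 ± 37.2 CPM in WT and 667 ± 58.3 in Notch1f/f (SD, n = 3), and the plexin Plxnd1 at 710 ± 55.5 and 995 ± 222.

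Kit stood at 949, 1192 and 1004 CPM in WT, at 860, 1310 and 1004 in DNMAML and at 1253, 923 and 1096 in Notch1f/f. The ranges of the 3 genotypes lay over each other. The log2 difference was 0.01 (SE 0.18, interval -0.38 to 0.41) in DNMAML and 0.06 (interval -0.34 to 0.45) in Notch1f/f. Changes inside those intervals remain compatible with these values, and a change outside them need not pass the adjusted threshold. Its ligand Kitl stood at 457 ± 24.6 CPM in WT, 502 ± 87.4 in DNMAML and 353 ± 40.2 in Notch1f/f (SD, n = 3), where each Notch1f/f library lay below each library of the other genotypes. Kitl did not pass in any comparison with edgeR. Kit also marks mast cells. The mast cell list (8 genes) summed to 7.56 to 20.7 CPM in WT, 14.7 to 30.4 in DNMAML and 12.4 to 18.5 in Notch1f/f. Hdc made up most of each sum, at 6.67 to 25.1 CPM, and the protease gene Cpa3 reached at most 3.85 CPM. The part of mast cells in the Kit counts was not tested.

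Glp1r stood at 989, 1264 and 933 CPM in WT, at 941, 910 and 1064 in DNMAML and at 944, 628 and 1134 in Notch1f/f. Notch1f/f replicate 2 was the lowest of all and the others overlapped. The log2 difference was -0.13 (SE 0.20, interval -0.57 to 0.31) in DNMAML and -0.24 (interval -0.68 to 0.21) in Notch1f/f. Without Notch1f/f replicate 2 the latter was -0.03. Gcg, which encodes the precursor of the hormone, had 0 counts in every library.

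Adgrl3, the latrophilin, stood at 233, 388 and 199 CPM in WT, at 249, 298 and 207 in DNMAML and at 331, 142 and 151 in Notch1f/f. WT replicate 2 was the highest and Notch1f/f replicate 2 the lowest, and the groups overlapped. The log2 difference was -0.12 (SE 0.37, interval -0.96 to 0.72) in DNMAML and -0.39 (interval -1.23 to 0.44) in Notch1f/f, the widest intervals of the 8 markers. The value in Notch1f/f turned on single libraries: it was -0.90, -0.17 and -0.21 when Notch1f/f replicate 1, 2 or 3 was left out, and -0.06 without WT replicate 2, and none of these passed with edgeR.

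Clec1a, the gene of a C-type lectin-like receptor, stood at 648, 695 and 692 CPM in WT, at 641, 721 and 696 in DNMAML and at 606, 437 and 556 in Notch1f/f. WT and DNMAML coincided, and all 3 Notch1f/f libraries lay below both. The log2 difference was 0.02 (SE 0.14, interval -0.29 to 0.32) in DNMAML. In Notch1f/f it was -0.35 against WT (SE 0.14, interval -0.66 to -0.04, edgeR adjusted p = 0.291) and -0.37 against DNMAML (interval -0.67 to -0.06, edgeR adjusted p = 0.683). Without Notch1f/f replicate 2 the difference from WT was -0.22 (edgeR adjusted p = 0.739).

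Cd93 stood at 2397, 2445 and 2765 CPM in WT, at 2453, 2810 and 2870 in DNMAML and at 3120, 3422 and 3023 in Notch1f/f. All Notch1f/f libraries lay above all others, while WT and DNMAML overlapped. The log2 difference from WT was 0.10 (SE 0.14, interval -0.21 to 0.40) in DNMAML and 0.33 (SE 0.14, interval 0.03 to 0.63, edgeR adjusted p = 0.315) in Notch1f/f. It was 0.28 without Notch1f/f replicate 2. Of the proteins that CD93 binds, multimerin (Mmrn2) stood at 237, 234 and 251 CPM in WT, at 339, 430 and 278 in DNMAML and at 402, 499 and 359 in Notch1f/f. Both mutant genotypes lay above WT. In Notch1f/f the log2 difference of Mmrn2 was 0.80 (edgeR adjusted p = 0.0525), and it passed under 9 of 18 alternatives, among them DESeq2 (adjusted p = 0.00113), with adjusted p from 4.48e-05 to 0.194. Igfbp7, listed both as a partner and as an aerocyte marker, stood at 388 ± 12.8 CPM in WT, 465 ± 32.2 in DNMAML and 623 ± 228 in Notch1f/f. Every mutant library lay above WT. Its log2 difference in Notch1f/f was 0.68 (edgeR adjusted p = 0.149). Igfbp7 passed under 3 of 18 alternatives, among them DESeq2 (adjusted p = 0.0404).

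Itga1 stood at 1211, 1465 and 1315 CPM in WT, at 1117, 1315 and 1349 in DNMAML and at 1442, 734 and 1067 in Notch1f/f. Notch1f/f replicate 2 was again the lowest, and the groups overlapped. The log2 difference from WT was -0.08 (SE 0.21, interval -0.54 to 0.38) in DNMAML and -0.30 (interval -0.76 to 0.16) in Notch1f/f, and -0.08 in Notch1f/f without replicate 2. Its partner chain Itgb1 stood at 789 ± 104 CPM in WT, 957 ± 63.1 in DNMAML and 948 ± 34.0 in Notch1f/f (SD, n = 3) and did not pass in either comparison with WT. Genes of basement membrane collagen, which this integrin binds, rose in Notch1f/f. Col4a1 stood at 1736, 1617 and 2287 CPM in WT, at 2872, 4408 and 2619 in DNMAML and at 4179, 8435 and 5343 in Notch1f/f, a log2 difference of 1.67 in Notch1f/f (edgeR adjusted p = 0.0242). Col4a2, which shares a promoter region with it, rose by 1.67 too (edgeR adjusted p = 0.0196). Leaving out WT replicate 1, 2 or 3 ended the call for Col4a1, as did leaving out Notch1f/f replicate 2 (adjusted p = 0.116, 0.113, 0.0544 and 0.0605, edgeR) and the replicate block in 6 libraries (adjusted p = 0.0502, edgeR), and leaving out WT replicate 1 or 2 ended it for Col4a2 (adjusted p = 0.104 and 0.0916, edgeR).

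Ptprb, the gene of the vascular endothelial phosphatase, stood at 4668, 5880 and 4759 CPM in WT, at 2658, 3706 and 3975 in DNMAML and at 3896, 2204 and 3280 in Notch1f/f. Every mutant library lay below every WT library, and the DNMAML and Notch1f/f ranges overlapped. The mean was 5103 ± 675 CPM in WT, 3446 ± 696 in DNMAML and 3127 ± 856 in Notch1f/f (SD, n = 3). The log2 difference was -0.57 in DNMAML (SE 0.22, interval -1.05 to -0.08, edgeR adjusted p = 0.698) and -0.71 in Notch1f/f (SE 0.22, interval -1.19 to -0.22, edgeR adjusted p = 0.160). Between the mutant genotypes it was -0.14. Both comparisons use the same WT libraries. DESeq2 called Ptprb lower in Notch1f/f (adjusted p = 0.0301). The difference in Notch1f/f was -0.50 without replicate 2 (edgeR adjusted p = 0.484). Same-numbered WT and DNMAML libraries deviated together, and the log2 differences of Ptprb within such pairs were -0.81, -0.67 and -0.26. Since the groups did not overlap, any pairing would give values below 0. With the replicate number as a block in those 6 libraries, edgeR called Ptprb lower (log2 difference -0.58, adjusted p = 0.0393). That pairing was read from these same counts and is not stated by the labels. In each of those pairs one library expressed Ddx3y and the other did not.

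Tek, the receptor that this phosphatase acts on, stood at 1484, 1813 and 1417 CPM in WT, at 967, 1304 and 1253 in DNMAML and at 1387, 834 and 1217 in Notch1f/f. Every mutant library lay below every WT library, as for Ptprb. The log2 difference was -0.42 in DNMAML and -0.46 in Notch1f/f, and neither passed (edgeR adjusted p = 0.854 and 0.339). Cdh5, which encodes VE-cadherin, stood at 6474 ± 288 CPM in WT, 6023 ± 282 in DNMAML and 5945 ± 566 in Notch1f/f (SD, n = 3).

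**Figure D3:**
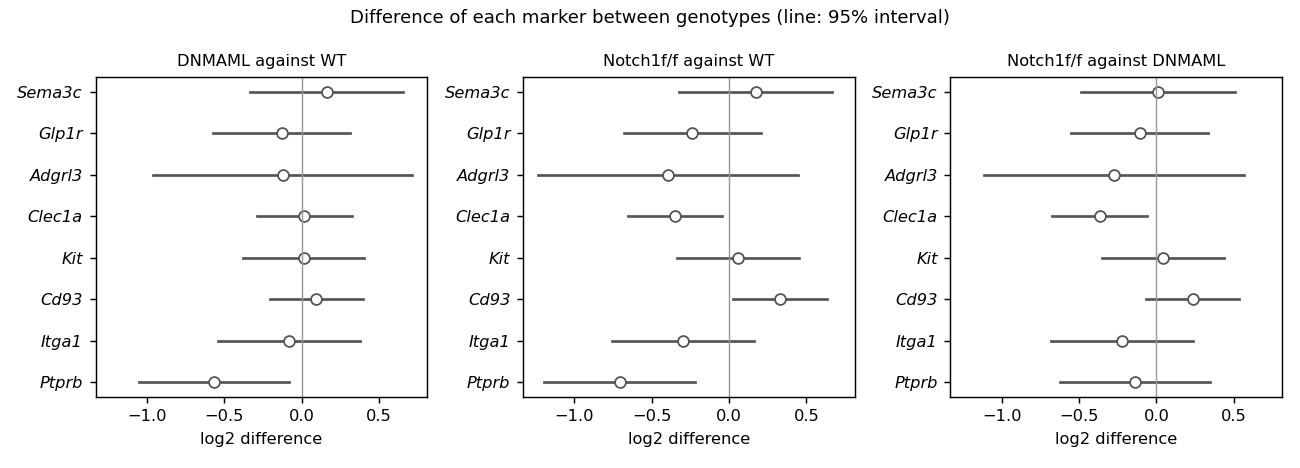
Log2 difference of each marker in the 3 comparisons, with lines for the unadjusted 95% interval and open circles since none passed the adjusted threshold. In Notch1f/f against WT the intervals of Ptprb, Clec1a and Cd93 exclude 0, and in DNMAML against WT only that of Ptprb does.

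For DNMAML against WT, 0 of 8 markers passed with edgeR, and 0.00513% of all genes tested did, all of them higher. Ptprb alone had an unadjusted p below 0.05, which 5.97% of all genes had. It was also the only marker whose groups did not overlap, 12.5% of the list against 14.4% of all genes (7.58% higher and 6.84% lower), a share near the background. DESeq2 and limma-voom each called 0 of 8. The median log2 difference of the markers was -0.03, against 0.01 over all genes.

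For Notch1f/f against WT, 0 of 8 markers passed with edgeR, and 0.836% of all genes did (0.513% higher and 0.323% lower). Ptprb, Clec1a and Cd93 had an unadjusted edgeR p below 0.05, which 13.4% of all genes had. The same 3 did not overlap, which is 37.5% of the list against 17.8% of all genes (8.5% higher and 9.33% lower). DESeq2 called 1 of 8 and limma-voom 0, with no share of all genes for these tools beside it. The markers had a median of -0.27 against 0.02 over all genes, and 5 of 8 were below 0. Notch1f/f replicate 2 was the lowest of the 9 libraries for Glp1r, Adgrl3, Clec1a, Itga1 and Ptprb, and the highest for Cd93. Its part in these differences was not tested beyond the values without it, given with each gene.

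For Notch1f/f against DNMAML, 0 of 8 markers passed with edgeR, and 0.0205% of all genes did (0.0103% higher and 0.0103% lower). Clec1a alone had an unadjusted edgeR p below 0.05, which 6.37% of all genes had. Clec1a and Cd93 did not overlap, 25% of the list against 9.72% of all genes (4.4% higher and 5.32% lower). DESeq2 and limma-voom each called 0 of 8. The log2 difference of Cd93 was 0.23 (interval -0.07 to 0.54, edgeR adjusted p = 0.926), and the remaining 6 ran from -0.27 for Adgrl3 to 0.04 for Kit.

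**Figure D4:**
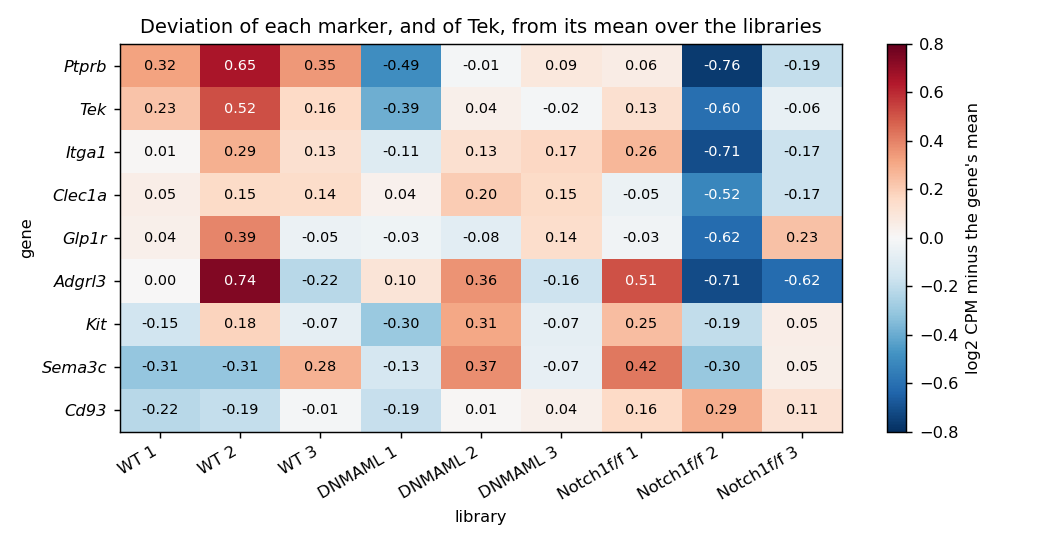
Log2 CPM of each of the 8 markers, and of Tek for comparison, centred on its mean over the 9 libraries, with libraries as columns and genes as rows. Notch1f/f replicate 2 is the lowest library for Glp1r, Adgrl3, Clec1a, Itga1 and Ptprb and the highest for Cd93.

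The markers differed in how they varied across the libraries. WT replicate 2 was the highest library for 4 of 8, and the lowest for Sema3c. Likeness of pattern was measured as the root mean square difference between log2 CPM values, each gene centred on its mean over the 9 libraries, with 9333 genes compared. The gene most like Ptprb was Tek, at 0.122, followed by Calhm2 at 0.135. Nearest to Itga1 were Stox1 at 0.0895 and Pde3a at 0.100, nearest to Glp1r were Sema6a at 0.0843 and Blzf1, and nearest to Cd93 were Tmem165 at 0.0648 and Slc23a2. Kit was nearest to Pcbp3 at 0.0772 and Scyl3, Clec1a to Phlpp2 at 0.0776 and Synrg, Adgrl3 to Tmem140 at 0.149 and Ifi213, and Sema3c to Ctu2 at 0.131 and Dclre1a. None of these is another of the 8 markers. The closest pair within the list was Itga1 and Clec1a, at 0.141. Ranked among the 9333 genes compared, the nearest fellow marker stood at rank 37 for Itga1, 148 for Ptprb, 151 for Adgrl3, 204 for Clec1a, 258 for Sema3c and 476 for Glp1r, against 2010 for Kit and 3269 for Cd93. These ranks describe 9 shared libraries.

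Other markers of general capillary cells moved in both directions in Notch1f/f. Of 9 such genes, which had also been chosen with results of these data known, Aplnr rose and Hilpda fell in Notch1f/f against WT. Over all genes edgeR called 0.513% higher and 0.323% lower in that comparison. Aplnr, the receptor of apelin, stood at 249, 242 and 249 CPM in WT, at 295, 441 and 373 in DNMAML and at 474, 800 and 546 in Notch1f/f. Its 3 genotypes did not overlap and its log2 difference in Notch1f/f was 1.30 (SE 0.20, edgeR adjusted p = 0.0166). Hilpda, a lipid droplet gene induced by hypoxia, stood at 145, 143 and 152 CPM in WT, at 69.1, 81.0 and 94.0 in DNMAML and at 57.2, 25.0 and 56.9 in Notch1f/f. It was lower in every mutant library than in any WT library, and its log2 difference in Notch1f/f was -1.66 (SE 0.27, edgeR adjusted p = 0.0284). Leaving out WT replicate 1, 2 or 3 ended both calls (adjusted p = 0.0836, 0.0705 and 0.0586 for Aplnr and 0.108, 0.109 and 0.0918 for Hilpda, edgeR).

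The remaining 7 did not pass in Notch1f/f against WT with edgeR. Over all 9 genes DESeq2 called 1 higher and 2 lower there, and limma-voom 1 each way. Among them the log2 difference was -0.17 for Plvap, which forms the diaphragms of endothelial pores, and 0.29 for the chemokine gene Cxcl12. It was -0.70 for Tmem100, which is induced by BMP signals, and -0.50 for Gpihbp1, which holds lipoprotein lipase on capillaries. The list's median was -0.17. In DNMAML against WT, edgeR, DESeq2 and limma-voom called 0 of the 9, and the median was -0.24. With edgeR 2 of the 9 had an unadjusted p below 0.05, which 5.97% of all genes had. With the replicate block in 6 libraries, edgeR called Aplnr higher (0.57, adjusted p = 0.0489) and Hilpda lower (-0.86, adjusted p = 0.00307) in DNMAML.

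Of 23 ligands and partners of the 8 proteins, 19 were tested, and edgeR called Col4a1 and Col4a2 higher and none lower in Notch1f/f against WT. Over all genes it called 0.513% higher and 0.323% lower in that comparison. There DESeq2 called 5 higher, limma-voom 2 and edgeR with the replicate block in 9 libraries 3, and none of them called any lower. In DNMAML against WT edgeR called 0 of 19, with 3 at an unadjusted p below 0.05, which 5.97% of all genes had. DESeq2 called 1 and limma-voom 0 in that comparison. In Notch1f/f against DNMAML edgeR called 0, with 7 at an unadjusted p below 0.05, which 6.37% of all genes had. DESeq2 called 1 and limma-voom 0 in that comparison. The gene that DESeq2 called there was Kdr, which was lower (adjusted p = 0.0476). Kdr stood at 2073 ± 113 CPM in WT, 2271 ± 309 in DNMAML and 1606 ± 171 in Notch1f/f (SD, n = 3). Each Notch1f/f library lay below each library of the other genotypes, and Kdr did not pass with edgeR in any comparison. Kitl, Nrp1, Nrp2, Plxnd1, Mmrn2, Igfbp7 and Gcg were named for their role after their values were seen.

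**Figure D5:**
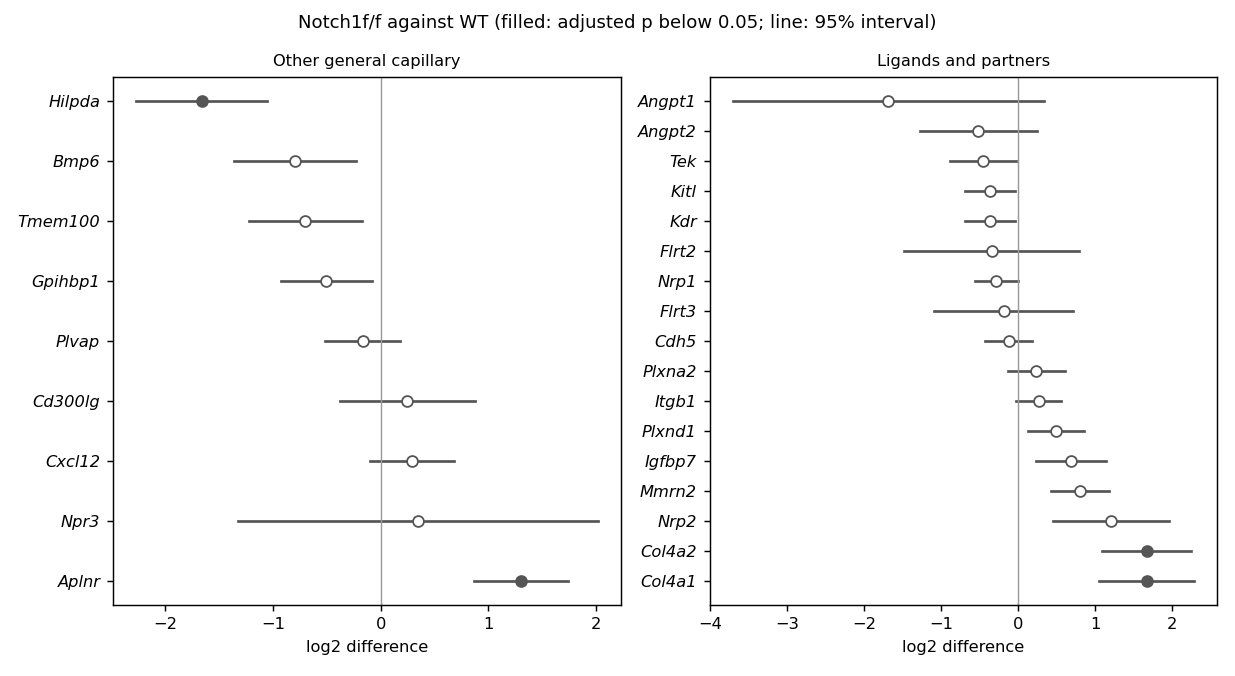
Log2 difference in Notch1f/f against WT, with lines for unadjusted 95% intervals, of the other general capillary markers (left) and of the ligands and partners tested (right), filled where the adjusted p was below 0.05. Tenm3 and Tenm4, whose intervals are wide, are left out of the plot. Aplnr, Col4a1 and Col4a2 passed above 0 and Hilpda below 0.

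Markers of other cells moved with genotype too. Aerocyte markers (12 genes) summed to 5459 to 5824 CPM in WT, 4009 to 6127 in DNMAML and 3367 to 4874 in Notch1f/f, and 9 of 12 had a log2 difference below 0 in Notch1f/f, with a median of -0.61. Tmcc2 alone of them passed with edgeR (-1.27, adjusted p = 0.0196), and DESeq2 called 3 lower and 1 higher. The Tmcc2 call was lost without WT replicate 1, 2 or 3 and without Notch1f/f replicate 2 (adjusted p = 0.0805, 0.0776, 0.0682 and 0.0605, edgeR). Car4, a defining aerocyte gene, is an example that did not pass. It stood at 497, 706 and 600 CPM in WT and 479, 361 and 514 in Notch1f/f. Mural cell markers (10 genes) summed to 557 to 835 CPM in WT, 343 to 678 in DNMAML and 146 to 263 in Notch1f/f, where Pdgfrb, Cspg4, Notch3, Higd1b and Gucy1a1 fell (5 of 10 with edgeR). Over all genes edgeR called 0.323% lower in Notch1f/f against WT. DESeq2 called 6 of the 10 lower and 1 higher there, and limma-voom 3 lower. Leaving out WT replicate 1 or 2 or Notch1f/f replicate 2 ended the call for Pdgfrb (adjusted p = 0.0771, 0.0845 and 0.0875, edgeR). Not all mural markers moved that way: Rgs5, a pericyte gene, stood at 13.3 to 16.2 CPM in WT, 22.2 to 29.5 in DNMAML and 20.9 to 23.1 in Notch1f/f, above WT in every mutant library, and did not pass in either comparison with edgeR. Platelet markers summed to 114 to 456, 85.9 to 1087 and 42.2 to 384 CPM in that order, and leukocyte markers to 115 to 825, 335 to 657 and 135 to 337. Lyz2 made up most of the leukocyte sum, at 385, 99.8 and 812 CPM in WT replicates 1 to 3. Of 9 leukocyte genes tested, 8 had a log2 difference above 0 in each comparison with WT, and none passed with edgeR. The medians were 2.24 in DNMAML and 0.98 in Notch1f/f. Alveolar epithelial markers summed to 438 to 3258 CPM in WT, 217 to 1644 in DNMAML and 186 to 1075 in Notch1f/f. Arterial markers summed to 2578 to 2874 CPM in WT, 2049 to 2310 in DNMAML and 1387 to 2238 in Notch1f/f, and venous markers to 2529 to 2982, 1503 to 1965 and 1753 to 2324. In both lists WT lay above the other genotypes without overlap, but 1 gene weighs most in each sum. The arterial gene Efnb2 had a mean of 1047 CPM in WT, 708 in DNMAML and 501 in Notch1f/f, and the venous gene Vwf of 1759, 864 and 1085. Efnb2 alone of the arterial list passed with edgeR in Notch1f/f against WT (-1.06, adjusted p = 0.0336). With the replicate block in 6 libraries edgeR called 0 arterial genes there. Singly, 2 of 10 arterial and 3 of 9 venous markers were lower in DNMAML than WT without overlap. In Notch1f/f 3 arterial markers were lower, and 2 venous ones lower and 2 higher. Over all genes 6.84% were lower that way in DNMAML, and 9.33% lower and 8.5% higher in Notch1f/f. Genes of the cell cycle summed to 18.1 to 20.96 CPM in WT, 250 to 314 in DNMAML and 69.6 to 404 in Notch1f/f, all above WT. Pan-endothelial markers summed to 18652 to 20440, 17770 to 19325 and 16647 to 19884 CPM, which overlap. Immediate early genes, which respond to tissue handling, spread widely within each genotype, from 3477 to 10825 CPM in WT. The part of these cells and signals in the differences of Ptprb, Clec1a and Cd93 was not tested.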

How the data were processed

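RNA of sorted lung endothelial cells was measured in 9 libraries. Per the labels' protocols, ribosomal RNA was removed and a strand-specific kit was used, with all libraries prepared together. The authors deposited raw read counts for each gene in a table of the whole series. The counts were made with featureCounts 2.0.1 with Ensembl release 107 on GRCm39, per the file headers, with no option for strand, read pairs or multiple mapping in the recorded command. The submitters' processing notes name STAR 2.7 and the build mm10, which differs from the header. Even numbers made up 76.6% to 89% of the counts below 200 in a library, so both reads of a pair may have been counted. Symbols were found for 52073 of 56748 identifiers.

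Genes were kept by filterByExpr, which left 19486. Library sizes were scaled by TMM, and the quasi-likelihood test of edgeR 4.0.16 (R 4.3.3) (robust) was run on the 9 libraries with a term for genotype alone. Each SE is the absolute log2 difference divided by the square root of F, so it restates the test. Intervals use the test's degrees of freedom. CPM and RPKM were computed here from the TMM-scaled library size and the table's exon length. It was checked on simulated counts with known changes. DESeq2 1.42.0, limma 3.58.1 (voom), other scalings and filters, fits to 6 libraries, a replicate block and leaving out each library were tried. Shares of all genes called are given for the main edgeR fit alone, so calls of DESeq2 and of the replicate block lack that background. Of 10 cell cycle genes DESeq2 called 10 higher in DNMAML against WT, where edgeR called 1. In Notch1f/f against WT it called 10, where edgeR called 7.

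Titles number the libraries 1 to 3 in each genotype without saying why. Deviations from the group means of same-numbered WT and DNMAML libraries correlated at 0.238, 0.344 and 0.179, and these 6 were treated as pairs in the replicate block. WT with Notch1f/f gave -0.13, -0.0244 and 0.191, and DNMAML with Notch1f/f -0.12, 0.0645 and 0.212, so Notch1f/f libraries were not taken as paired. The pairing was thus read from these same counts. Differently numbered WT and DNMAML libraries gave -0.27 to 0.0774. Taking deviations from the group means ties these values to those of same-numbered libraries, so they are not separate support for the pairing. Notch1f/f replicate 1 gave 0.352 with WT replicate 2 and 0.306 with DNMAML replicate 2, so libraries of unlike number can also deviate together. The members and lists were chosen with earlier results of these data known. Of the lists of other general capillary markers and of ligands and partners, genes past the threshold and otherwise the 4 of highest mean CPM were to be named, and for each marker its 2 nearest genes of at least 10 CPM.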

Additional observations from a re-analysis of the deposited data

How the results depend on the processing

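The 8 markers in 3 comparisons gave 432 values under the alternatives, of which 402 kept their direction and stayed on their side of the threshold. The count of markers called lower became 1, Ptprb each time, with the replicate block in the 6 libraries for DNMAML against WT, and with DESeq2 and with no filter on low counts for Notch1f/f against WT (edgeR adjusted p = 0.00309 without the filter); the cause was not tested. The replicate block changed no other call among the 8 markers. A direction turned in 27 values. Kit in DNMAML against WT gave -0.00227 with limma-voom and -0.00272 with the replicate block in 6 libraries. Sema3c in Notch1f/f against DNMAML gave -0.00302 with limma-voom, -0.0034 with the block in 9 libraries and -0.00465 with the block in 6. The others came from leaving out a library. For DNMAML against WT, those log2 differences ran from -0.00428 to 0.39 for Sema3c, -0.16 to 0.14 for Kit, -0.21 to 0.0203 for Glp1r, -0.30 to 0.22 for Adgrl3, -0.0146 to 0.0651 for Clec1a and -0.14 to 0.00425 for Itga1. For Notch1f/f against WT they ran from -0.0368 to 0.40 for Sema3c and -0.0593 to 0.17 for Kit. For Notch1f/f against DNMAML they ran from -0.20 to 0.18 for Sema3c, -0.086 to 0.22 for Kit, -0.31 to 0.10 for Glp1r, -0.49 to 0.000538 for Itga1 and -0.34 to 0.0641 for Ptprb. Over all genes, calls in Notch1f/f against WT ran from 8 to 664 higher, beside 100, and from 5 to 751 lower, beside 63, fewest without WT replicate 1 and most with no filter. In DNMAML against WT they ran from 0 to 361 higher, beside 1, and from 0 to 99 lower, beside 0, and in Notch1f/f against DNMAML from 0 to 176 higher and from 1 to 520 lower, beside 2 each. The least counted marker, Adgrl3, had at least 2687 counts in a library. How far depth and the spread between 3 libraries a genotype each limit the precision was not tested.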
